A study of Gallus gallus with 10 samples.

Results

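The mitochondrial ribosomal protein genes described here are the rows of the white isthmus expression table whose gene symbol begins with MRPL or MRPS followed by a digit. There were 71 such rows among 17617, 44 of them MRPL and 27 MRPS, and they carried 70 distinct symbols because MRPL19 appeared on 2 rows. The rule used the symbols only and no measured value. The tissue came from 10 dwarf white hens, 5 that laid translucent eggs (Translucent-1 to Translucent-5) and 5 that laid opaque eggs (Opaque-1 to Opaque-5), with 1 mRNA library per hen and no treatment in either group. The hens of both groups are labelled WT, came from 1 selected population and were graded repeatedly for eggshell translucency late in lay, and the labels give no age at sampling. They were killed at what the paper calls the calcification stage, although it also places the eggs in the white isthmus at sampling. Its discussion refers instead to the time of membrane formation. The hens of each group were picked after membrane measurements. By the paper's account, those taken from the opaque group had normal membranes and those from the translucent group thinner ones. The groups were thus chosen on both traits, although the paper reports no significant difference in membrane thickness at sampling. The comparison asks whether these genes differed between hens of the translucent group and hens of the opaque group.

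Mitochondria carry their own ribosome, which translates the few messenger RNAs of the mitochondrial genome, all of them for subunits of the oxidative phosphorylation complexes. Its ribosomal RNAs are made in the organelle, whereas its proteins are encoded in the nucleus, made in the cytosol and imported. Some of these proteins have counterparts in bacterial ribosomes and others are found only in mitochondria. MRPL proteins build the large subunit, which joins amino acids, and MRPS proteins build the small subunit, which reads the messenger RNA. A few names are historical, since MRPS30 and MRPS18A are placed in the large subunit and MRPS36 is now known in yeast and mammals as a component of the 2-oxoglutarate dehydrogenase complex.

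The reads assigned to genes numbered 15245165 to 19014779 per hen in the translucent group and 11601225 to 17309287 in the opaque group. Levels are given as FPKM, the fragments scaled to gene length and library size, when genes are compared with each other, and as CPM, read counts scaled to library size by edgeR's TMM factors, when hens are compared. The white isthmus markers were present in every hen, since the type X collagen gene lay between 50799 and 66328 CPM and LOXL2, a lysyl oxidase family member, between 5049.8 and 16906 CPM. Of the 8 shell gland genes listed, 5 were in the table, and SPP1 and SLC26A9 did not exceed 1.88 CPM and CALB1 did not exceed 11.2 CPM in any hen, whereas CA2 lay between 261 and 865 CPM and EDIL3 between 605 and 3105 CPM. Hens Translucent-1 and Opaque-5 stood apart from the other 8 on the first principal component of log2 CPM, at 54.7 and 78.3 on an axis that held 39.8% of the variance. In bulk tissue, fewer cells of a type and less RNA per cell cannot be told apart.

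The mitochondrial ribosomal protein genes were mostly expressed at moderate levels. Of the 71 rows, 70 passed the filter on low counts, and their mean FPKM over the 10 hens had a median of 24.6 (quartiles 16.5 and 35.3). Between 10 and 60 FPKM lay 62 of them. Apart from MRPL4, the highest mean was 21.4 times the lowest. The summed reads of the 71 rows made up 0.194% to 0.297% of the reads of a hen. The median level was 574 FPKM over 68 cytosolic ribosomal protein genes, 92.9 FPKM over 64 nuclear-encoded oxidative phosphorylation subunits and 1678 FPKM over the 13 messenger RNAs of the mitochondrial genome. The 20 assembly factors of the mitochondrial ribosome that were measured had a median of 11.7 FPKM.

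**Figure D1:**
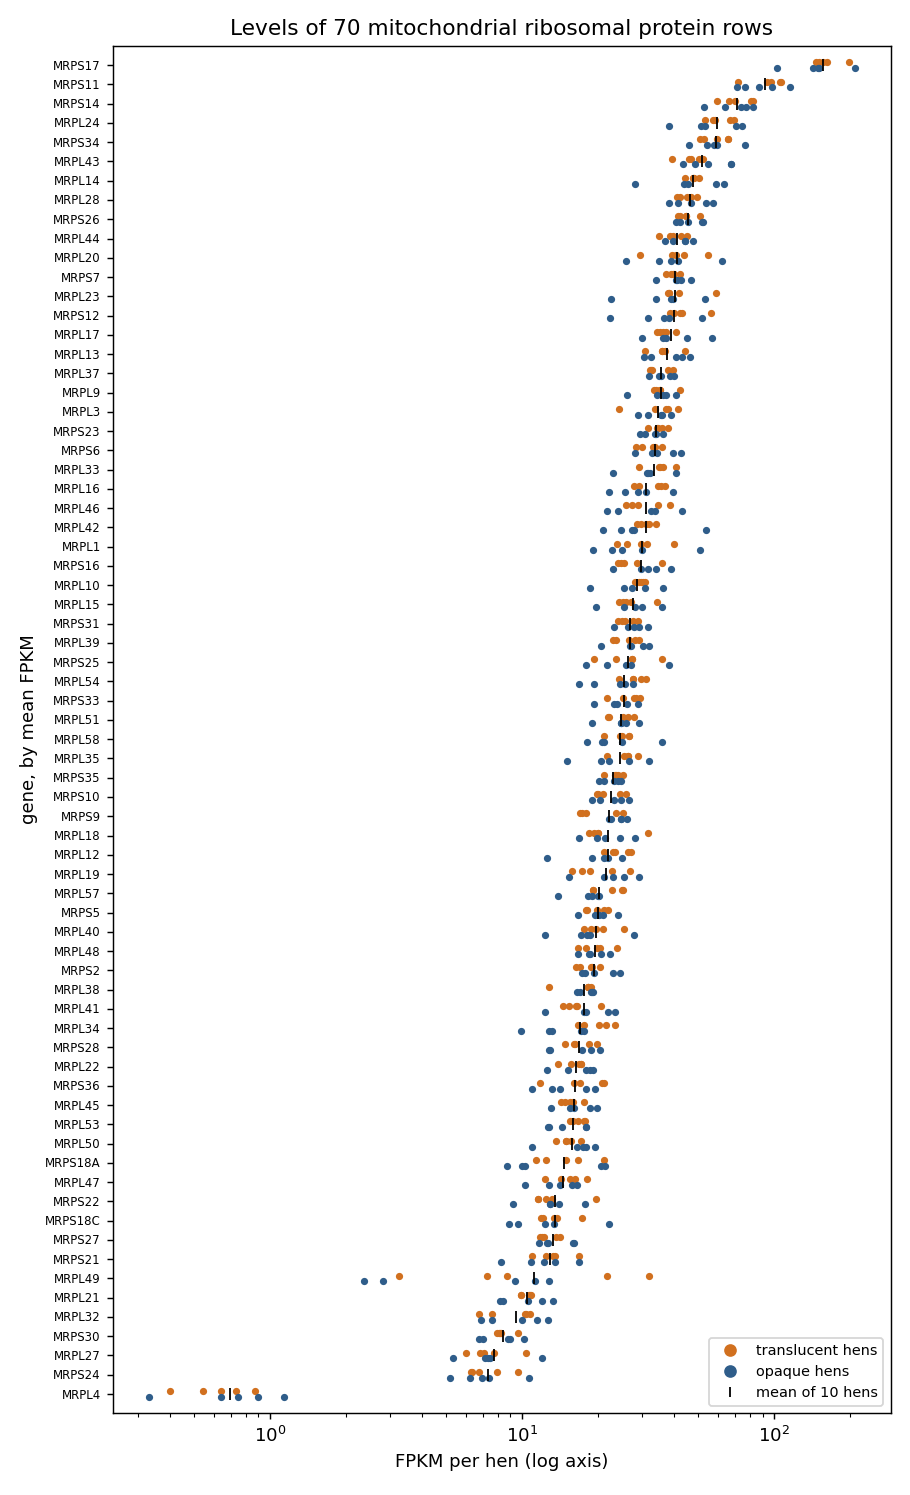
FPKM per hen on a log axis for the 70 rows that passed the filter, ordered by mean, with points for the 5 translucent and 5 opaque hens and a tick at the mean of all 10. The means run from 157.0 FPKM for MRPS17 to 7.34 FPKM for MRPS24, with MRPL4 apart at 0.694 FPKM, and the 2 groups of points overlap on every row.

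MRPS17 (ENSGALG00000002379), the counterpart of a bacterial protein that binds ribosomal RNA early in small subunit assembly, was the highest. It had 197, 162, 157, 151 and 146 FPKM in hens Translucent-1 to Translucent-5, against 151, 103, 142, 149 and 209.8 FPKM in hens Opaque-1 to Opaque-5. The opaque hens thus held both the lowest and the highest value, and the groups overlapped. It was followed by MRPS11 of the small subunit platform at 92.3 ± 15.2 FPKM (SD, n = 10), MRPS14 of the small subunit head at 71.1 ± 10.4, MRPL24, which lies near the exit tunnel, at 59.4 ± 11.1, the mitochondria-specific MRPS34 at 58.7 ± 8.82 and the mitochondria-specific MRPL43 at 51.7 ± 9.46 FPKM.

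At the lower end were MRPL21 at 10.4 ± 1.51 FPKM, MRPL32 at 9.44 ± 2.08, MRPS30 at 8.37 ± 1.06, MRPL27 at 7.72 ± 1.98 and MRPS24 at 7.34 ± 1.68 FPKM. MRPL32 is matured by the mitochondrial m-AAA protease, and MRPL27 has a bacterial counterpart close to the site of peptide bond formation. MRPL4 (ENSGALG00000050204), whose bacterial counterpart lines the exit tunnel, stood well under the rest. It had 0.87, 0.54, 0.73, 0.40 and 0.64 FPKM in the translucent hens, against 0.64, 0.90, 0.75, 0.33 and 1.14 FPKM in the opaque hens, which rested on 7 to 30 reads per hen. Neighbours in the order of levels mostly did not differ beyond the spread over hens. Only 4 of the 69 neighbouring pairs kept their order in all 10 hens, namely MRPS17 over MRPS11, MRPS11 over MRPS14, MRPS14 over MRPL24 and MRPS24 over MRPL4.

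The levels of the subunits and families overlapped. Among the rows that passed the filter, the 45 of the large subunit, MRPS30 and MRPS18A included, had a median of 24.5 FPKM (quartiles 16.4 and 34.6), and the 24 of the small subunit had 25.9 FPKM (quartiles 18.7 and 40.2). The 39 rows of families numbered as in bacteria had a median of 28.6 FPKM, and the 30 mitochondria-specific rows had 23.7 FPKM. The ratio of summed large to summed small subunit CPM lay between 1.18 and 1.26 in the translucent hens and between 1.12 and 1.26 in the opaque hens. Its highest value was 1.13 times its lowest, against 1.81 times for the summed CPM of all members.

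Translucent and opaque hens did not differ detectably in any mitochondrial ribosomal protein gene. The quasi-likelihood test of edgeR was run on 12858 genes, its p-values were adjusted over all of them by the Benjamini-Hochberg method, and a gene was called at an adjusted p under 0.05 together with a log2 fold change beyond -1 or 1. Of the 70 rows tested, 0 were called, against 0% of all genes, and the smallest adjusted p among them was 0.9999 where the smallest over all genes was 0.655. DESeq2 also called 0 of them, against 0.0156% of all genes. At an unadjusted p under 0.05, edgeR placed 1 of the 70 rows, against 2.19% of all genes. That row was higher in translucent hens and 0 rows were lower, against 1.07% and 1.12% of all genes. DESeq2 gave the same counts, against 1.39% and 1.28%. The groups did not overlap in 0 of the 70 rows, against 0.443% of all genes.

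The differences were small in both directions. The log2 fold change, translucent over opaque, was positive in 38 and negative in 32 of the 70 rows, and 54.3% positive stands beside 48.6% of all genes. Its median was 0.03 (quartiles -0.05 and 0.09), against -0.01 (quartiles -0.12 and 0.11) over all genes. The absolute value stayed under 0.5 in 69 rows, where 93.1% of all genes did so. The 95% interval lay within -1 and 1 in 68 rows, the exceptions being MRPL49 and MRPL4, and in 77.6% of all genes. A 2-fold difference was thus outside the interval for those 68 rows, and the width of the intervals differed between genes, from -0.13 to 0.32 for MRPS23 to -0.40 to 2.42 for MRPL49.

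**Figure D2:**
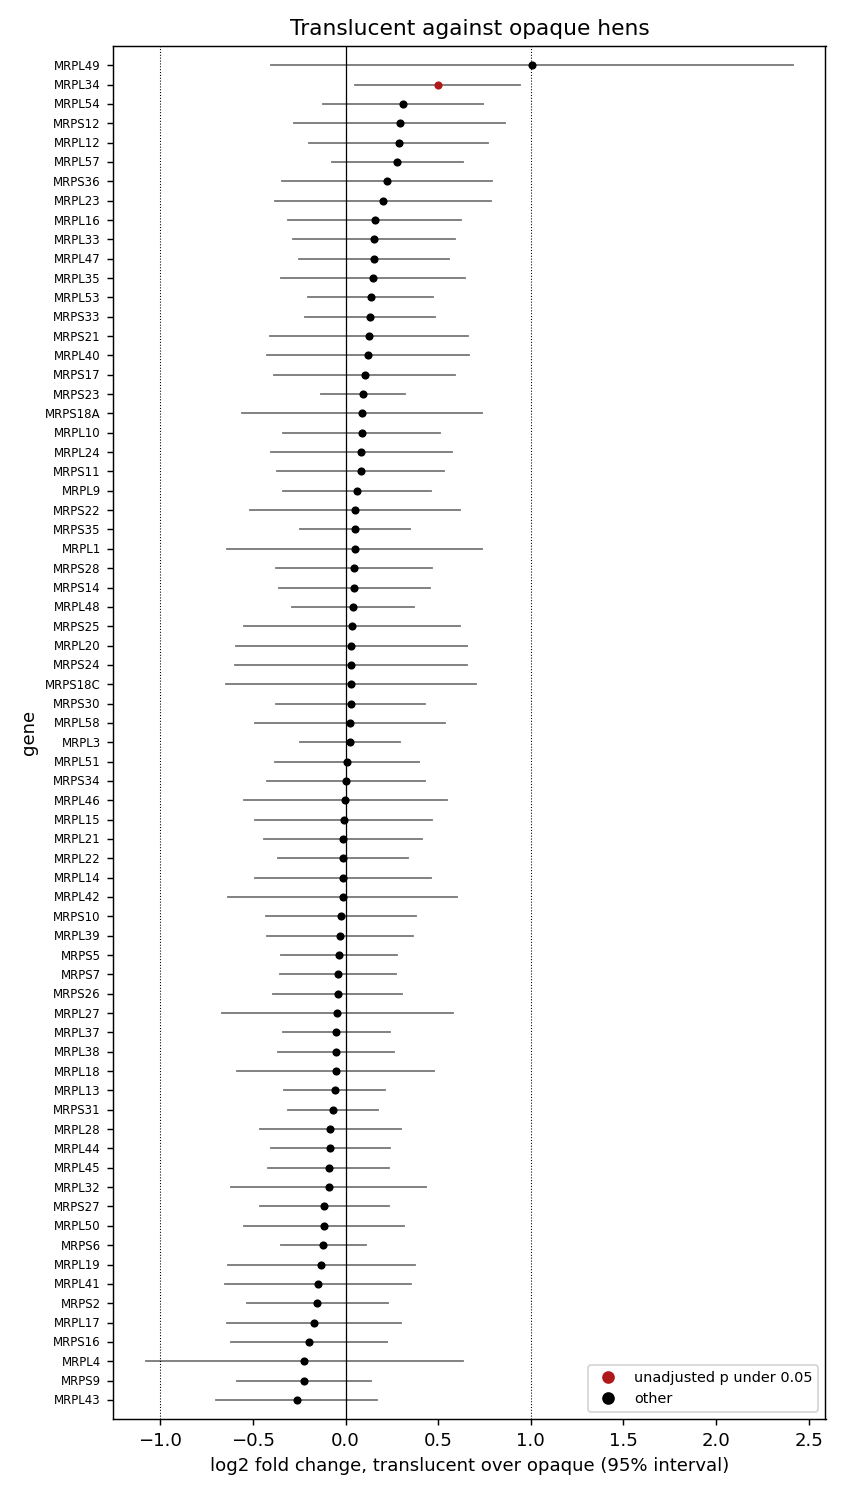
Fitted log2 fold change of translucent over opaque hens for the 70 rows tested, with 95% intervals from edgeR's quasi-likelihood fit, ordered by size, and dotted lines at -1 and 1. The interval holds 0 in 69 rows, MRPL34 (red) being the exception at 0.50, and the widest is that of MRPL49.

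The only row with an unadjusted p under 0.05 was MRPL34 (ENSGALG00000036004), which encodes the counterpart of bacterial bL34, a small basic protein of the large subunit. It had 31.6, 24.9, 20.6, 21.2 and 27.2 CPM in hens Translucent-1 to Translucent-5, against 20.3, 12.1, 15.5, 16.2 and 24.7 CPM in hens Opaque-1 to Opaque-5. All 5 translucent hens were above 4 of the opaque hens, and Opaque-5 overlapped with the translucent group. The log2 fold change was 0.50 ± 0.20 (SE, n = 5 each), with a 95% interval of 0.05 to 0.94 and an unadjusted p of 0.0312, and the adjusted p of edgeR's test was 0.9999. Over all 252 ways to allot the hens, an exact permutation test of its log2 CPM (two-sided) gave p = 0.0317. That p is not adjusted for the choice of this row as the one with the smallest p. The unadjusted p missed 0.05 without Translucent-1 (0.0808), Translucent-5 (0.0613), Opaque-2 (0.0696), Opaque-3 (0.0698) or Opaque-4 (0.0625).

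Of the others with the smallest unadjusted p among positive fold changes, none passed. The mitochondria-specific MRPL57 averaged 39.4 ± 6.002 CPM in translucent hens and 32.4 ± 6.39 CPM in opaque hens (SD, n = 5 each), and its log2 fold change was 0.28 ± 0.16 (SE). The mitochondria-specific MRPL54 averaged 17.5 ± 3.07 CPM in translucent hens and 14.1 ± 3.55 CPM in opaque hens, a log2 fold change of 0.31 ± 0.20. MRPL12, the stalk protein that recruits translation factors and is also reported to bind the mitochondrial RNA polymerase in human cells, averaged 13.9 ± 2.46 CPM in translucent hens and 11.4 ± 3.32 CPM in opaque hens, with a log2 fold change of 0.29 ± 0.22.

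MRPS12, the counterpart of the bacterial protein that governs decoding accuracy, had 34.8, 22.2, 20.2, 22.1 and 19.9 CPM in hens Translucent-1 to Translucent-5, against 15.5, 11.55, 19.2, 19.7 and 31.6 CPM in hens Opaque-1 to Opaque-5. Translucent-1 and Opaque-5 were the high hens, and the other 4 translucent hens lay above the other 4 opaque hens by a small margin. The log2 fold change was 0.29 ± 0.26. With each hen left out in turn it ran from 0.12 to 0.54. The highest value, without Opaque-5, had an unadjusted p of 0.0334 in edgeR's test. MRPL57 and MRPL54 likewise had an unadjusted p under 0.05 without that hen (0.0360 and 0.0296). With each hen left out, their log2 fold changes ran from 0.19 to 0.38 and from 0.20 to 0.45. Of the 20 alternative settings, 2 gave an unadjusted p under 0.05 for MRPS12, 1 for MRPL57 and 1 for MRPL54.

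Among negative fold changes the smallest p belonged to MRPS9, a protein of the small subunit head. It had 42.2, 26.6, 25.9, 37.2 and 24.3 CPM in hens Translucent-1 to Translucent-5, against 36.7, 33.8, 35.5, 38.3 and 38.2 CPM in hens Opaque-1 to Opaque-5. The opaque hens lay close together, while 3 translucent hens were below all of them and Translucent-1 was above. The log2 fold change was -0.22 ± 0.16 with an unadjusted p of 0.198 in edgeR's test. With each hen left out in turn it ran from -0.36 to -0.15. The value of -0.36, without Translucent-1, had an unadjusted p of 0.0346 in that test. Of the 20 alternative settings, 2 gave an unadjusted p under 0.05.

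MRPL43 averaged 24.7 ± 4.31 CPM in translucent hens and 29.7 ± 8.11 CPM in opaque hens, a log2 fold change of -0.26 ± 0.20. MRPS16, whose loss impairs respiratory chain assembly in humans, averaged 36.2 ± 6.21 CPM in translucent hens and 41.5 ± 11.3 CPM in opaque hens, with a log2 fold change of -0.20 ± 0.19. The differences in MRPS6 (-0.12 ± 0.10), MRPS2 (-0.15 ± 0.17) and MRPL17 (-0.17 ± 0.21) were also within their spread, and all of these are counterparts of bacterial ribosomal proteins. The negative values of MRPL43, MRPS16, MRPS2 and MRPL17 turned positive when only hens 1 to 3 of each group were kept, and that of MRPL17 also without Opaque-5.

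The members with set roles in the ribosome gave the same picture. MRPL3, whose bacterial counterpart reaches toward the peptidyl transferase centre, averaged 36.4 ± 4.21 CPM in translucent hens and 35.8 ± 3.55 CPM in opaque hens. MRPL10, which anchors the stalk made by MRPL12, averaged 35.7 ± 3.52 CPM in translucent hens and 33.6 ± 10.4 CPM in opaque hens. MRPL1, of the mobile stalk on the other side of the large subunit, averaged 40.1 ± 12.1 CPM in translucent hens and 38.8 ± 21.04 CPM in opaque hens. MRPL1 was among the 3 most variable rows within groups, with an SD of 0.54 on the log2 scale.

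The MRPS18 paralogs sit in different places in the ribosome, MRPS18C in the bacterial position and MRPS18A in the large subunit. MRPS18C averaged 8.92 ± 2.30 CPM in translucent hens and 8.78 ± 4.44 CPM in opaque hens, and MRPS18A averaged 22.8 ± 4.64 CPM in translucent hens and 21.5 ± 10.4 CPM in opaque hens. MRPS18A was highest in Opaque-5 and low in Opaque-2, but was close to its mean in Translucent-1. It had 21.7, 16.7, 22.0, 23.98 and 29.6 CPM in hens Translucent-1 to Translucent-5, against 13.7, 15.04, 30.0, 13.2 and 35.3 CPM in hens Opaque-1 to Opaque-5, so that Opaque-3 and Opaque-5 were above every translucent hen and the other 3 opaque hens below every one. MRPS36 averaged 9.72 ± 2.86 CPM in translucent hens and 8.32 ± 2.47 CPM in opaque hens. No row carried the symbol MRPL11 or MRPS18B, so these 2 genes could not be described.

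Single hens differed widely within both groups. The summed CPM of the mitochondrial ribosomal protein genes was 3208, 2407, 2359, 2453 and 2165 in hens Translucent-1 to Translucent-5, against 2278, 1888, 2281, 2513 and 3424 in hens Opaque-1 to Opaque-5. Translucent-1 and Opaque-5 were the highest hens and Opaque-2 the lowest, and the translucent hens lay within the range of the opaque hens. The means were 2518 ± 401 CPM in translucent hens and 2477 ± 575 CPM in opaque hens (SD, n = 5 each). Without Translucent-1 and Opaque-5 they were 2346 ± 127 CPM in translucent hens and 2240.0 ± 259 CPM in opaque hens (n = 4 each).

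By CPM, most of the genes shared this order of hens. Against its own mean log2 CPM over the 10 hens, 66 of the 70 rows were above in Translucent-1 and 67 in Opaque-5. The median log2 deviations were 0.41 and 0.51. In Opaque-2, 6 rows were above, with a median of -0.41. The share of all genes was not computed for these counts. Translucent-1 or Opaque-5 was the highest hen in 66 rows by CPM, against 36.3% of all genes. The count by FPKM was 49, against 20.5% of all genes. Translucent-1 and Opaque-5 were the 2 highest hens in 51 rows (72.9%), against 20.6% of all genes, but in 24 rows (34.3%) when FPKM was used, against 8.57% of all genes, and also in 24 by library size alone, against 8.55%. Opaque-2 was the lowest hen in 47 rows (67.1%), against 14.4% of all genes, in 51 by FPKM, against 14%, and in 50 by library size alone, against 14.1%. These shares describe hens noticed in the same data and carry no test.

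**Figure D3:**
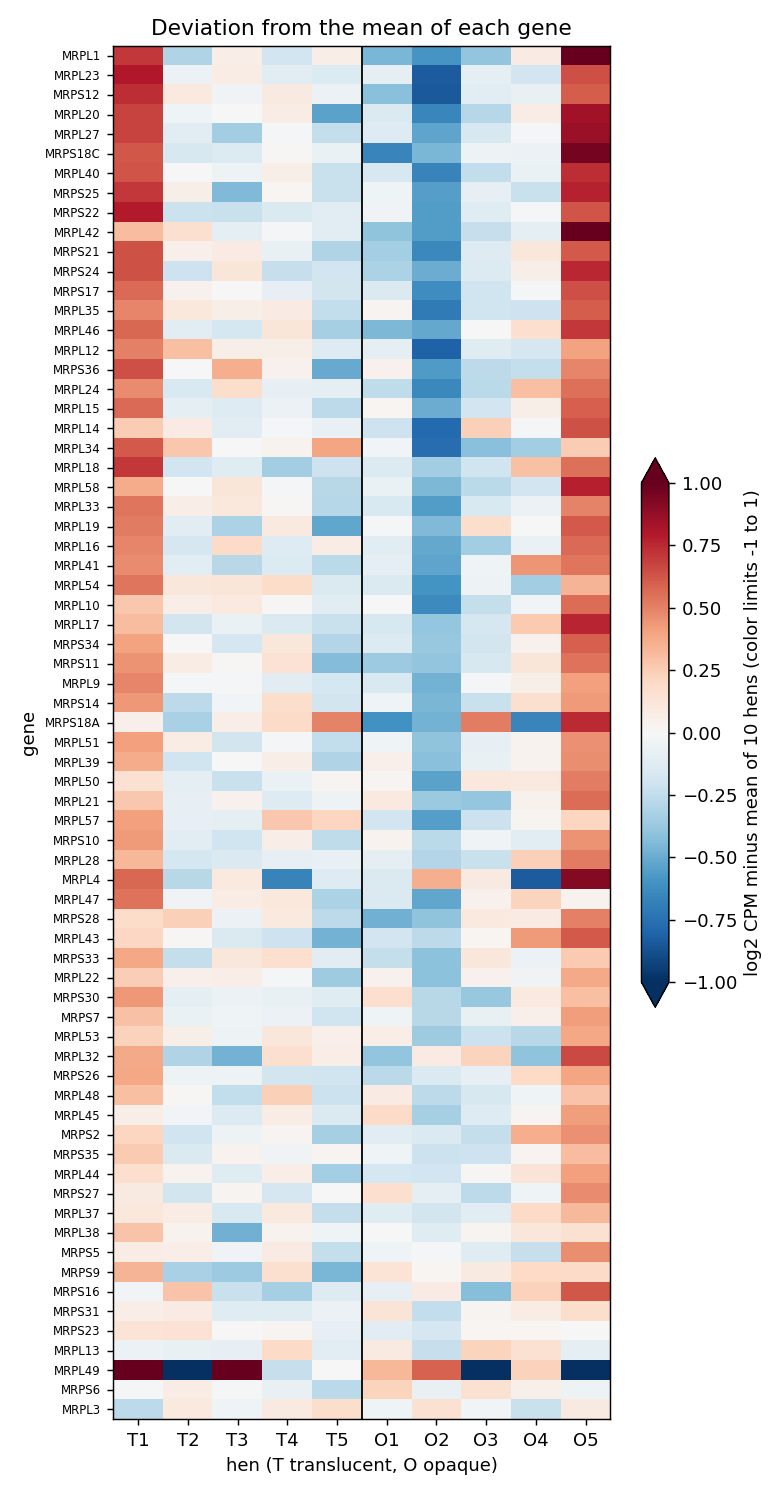
Log2 CPM minus the mean of the 10 hens for each of the 70 rows, translucent hens T1 to T5 left of the line and opaque hens O1 to O5 right of it, with color limits at -1 and 1. T1 and O5 are red in 66 and 67 rows, O2 is blue in 64, and MRPL49, MRPS6 and MRPL3 near the bottom do not share the order.

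By CPM, a few genes did not share the order. With FPKM in place of CPM, further rows lay below their mean in Translucent-1. Examples are MRPL44 (39.6 FPKM against a mean of 41.4) and MRPL37 (32.7 against 35.6). The rest of this paragraph uses CPM. MRPS6, MRPL3, MRPL13 and MRPS16 were not above their mean in Translucent-1, and MRPS6, MRPL13 and MRPL49 were not above it in Opaque-5. MRPS6 had 82.6, 88.2, 82.3, 79.4 and 69.4 CPM in hens Translucent-1 to Translucent-5, against 97.7, 79.3, 92.8, 86.4 and 80.6 CPM in hens Opaque-1 to Opaque-5. Its values were close together and neither Translucent-1 nor Opaque-5 was high. The mitochondria-specific proteins MRPS23, at 34.1 ± 2.25 CPM in translucent hens and 32.0 ± 1.89 CPM in opaque hens, and MRPS31, at 53.4 ± 3.72 CPM in translucent hens and 55.9 ± 6.10 CPM in opaque hens, were with MRPS6 the least variable rows, with within-group SDs of 0.09 to 0.14 on the log2 scale. The median over the 70 rows was 0.32, beside 0.35 over all genes.

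By CPM, several other sets of genes of protein synthesis and respiration had the same high hens, where 20.6% of all genes did. For the mitochondrial ribosomal protein genes the share of 72.9% by CPM was 34.3% by FPKM. Translucent-1 and Opaque-5 were the 2 highest in 63 of 68 cytosolic ribosomal protein genes (92.6%), in 58 of 64 nuclear-encoded oxidative phosphorylation subunits (90.6%) and in 12 of the 13 mitochondrially encoded messenger RNAs. The share was 7 of 20 for assembly factors of the mitochondrial ribosome, 5 of 10 for mitochondrial translation factors and 3 of 13 for mitochondrial aminoacyl-tRNA synthetases. The last, 23.1%, was close to the share of all genes. Opaque-2 was the lowest hen in 80.9% of the cytosolic ribosomal protein genes and 76.6% of the nuclear-encoded respiratory subunits, against 14.4% of all genes. It was the lowest in 0 of the 13 mitochondrially encoded messenger RNAs.

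Some measures of the libraries moved with this order and others did not. LOXL2 had 5049.8, 9628, 12405, 9844 and 13233 CPM in hens Translucent-1 to Translucent-5, against 9051, 16906, 8917, 6813 and 5234 CPM in hens Opaque-1 to Opaque-5, so that it was lowest in the hens with the most mitochondrial ribosomal protein mRNA and highest in Opaque-2, which had the least. The other white isthmus marker, the type X collagen gene, did not follow, with 62150 CPM in Translucent-1, 66328 CPM in Opaque-5 and 64461 CPM in Opaque-2, against 50799 to 62788 CPM in the other 7 hens. The most abundant gene took 11.51% of the reads in Translucent-1 and 8.57% in Opaque-5, against 5.69% to 6.91% in the other 8 hens, and the TMM factors of these hens, 0.855 and 0.869, were the lowest. Of the marker lists, 4 of 11 red blood cell genes, 5 of 5 endothelium genes and 6 of 6 fibroblast genes passed the filter and were used. These lists were below their mean in both high hens and above it in Opaque-2, with other hens on either side. Their median log2 deviations were -0.74, -0.38 and -0.39 in Translucent-1 and -0.51, -0.49 and -0.97 in Opaque-5, against 0.34, 0.44 and 0.48 in Opaque-2. The leukocyte, ciliated cell and shell gland lists, the last with 3 genes past the filter, did not follow. Those medians were 0.21, 0.07 and -0.98 in Translucent-1, -0.81, -0.36 and 0.83 in Opaque-5, and 0.04, 0.25 and -0.48 in Opaque-2. The summed CPM lay between 75.1 and 204 in translucent hens and between 93.5 and 188 in opaque hens for red blood cells, between 321 and 565 in translucent hens and between 309.6 and 596 in opaque hens for endothelium, and between 378 and 697 in translucent hens and between 299 and 666 in opaque hens for fibroblasts. Between the groups, all 11 leukocyte genes tested had a positive log2 fold change (median 0.42), against 48.6% of all genes. All 5 ciliated cell genes had a negative one (median -0.10). Genes of 1 list come from the same hens and are not independent of each other. Summed leukocyte CPM ran from 1114 to 3833 (Translucent-5) in translucent hens and from 490 (Opaque-4) to 1684 in opaque hens. The median hen went the other way, at 1444 CPM in translucent hens and 1631 CPM in opaque hens. The summed CPM of the magnum genes (5 of 8 past the filter) did not follow the order. It was 27083 CPM in Translucent-1, 22856 CPM in Opaque-5 and 25067 CPM in Opaque-2, against 9332 to 16941 CPM in the other 7 hens. Most of that sum was 1 gene, TF, at 24721 CPM in Translucent-1, 21588 CPM in Opaque-5 and 22856 CPM in Opaque-2. The median log2 deviations of the magnum list were 1.17, 0.26 and 0.65 in the same hens. The 8 smooth muscle genes were high in Translucent-1 alone, at 1122 CPM summed, against 355 to 749 CPM in the other 9 hens. Some marker genes of other tissues and cell types had an unadjusted p under 0.05 in edgeR's test, against 2.19% of all genes. They were OVALY, 1 of 5 magnum genes tested, and BLB1, 1 of 11 leukocyte genes, with log2 fold changes of 4.94 and 0.79. The others were SLC4A1, 1 of 4 red blood cell genes, and FOXJ1, 1 of 5 ciliated cell genes, with -1.62 and -0.33. The other 3 red blood cell genes had a positive log2 fold change, and the median of that list was 0.39. OVALY (SE 1.46, adjusted p 0.9999 in edgeR's test) had 505, 8.73, 2.77, 90.4 and 29.3 CPM in hens Translucent-1 to Translucent-5. Its values were 6.18, 12.3, 0.0801, 0.175 and 1.68 CPM in hens Opaque-1 to Opaque-5. The part of these measures in the level of the mitochondrial ribosomal protein genes and in the order of the hens was not tested.

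**Figure D4:**
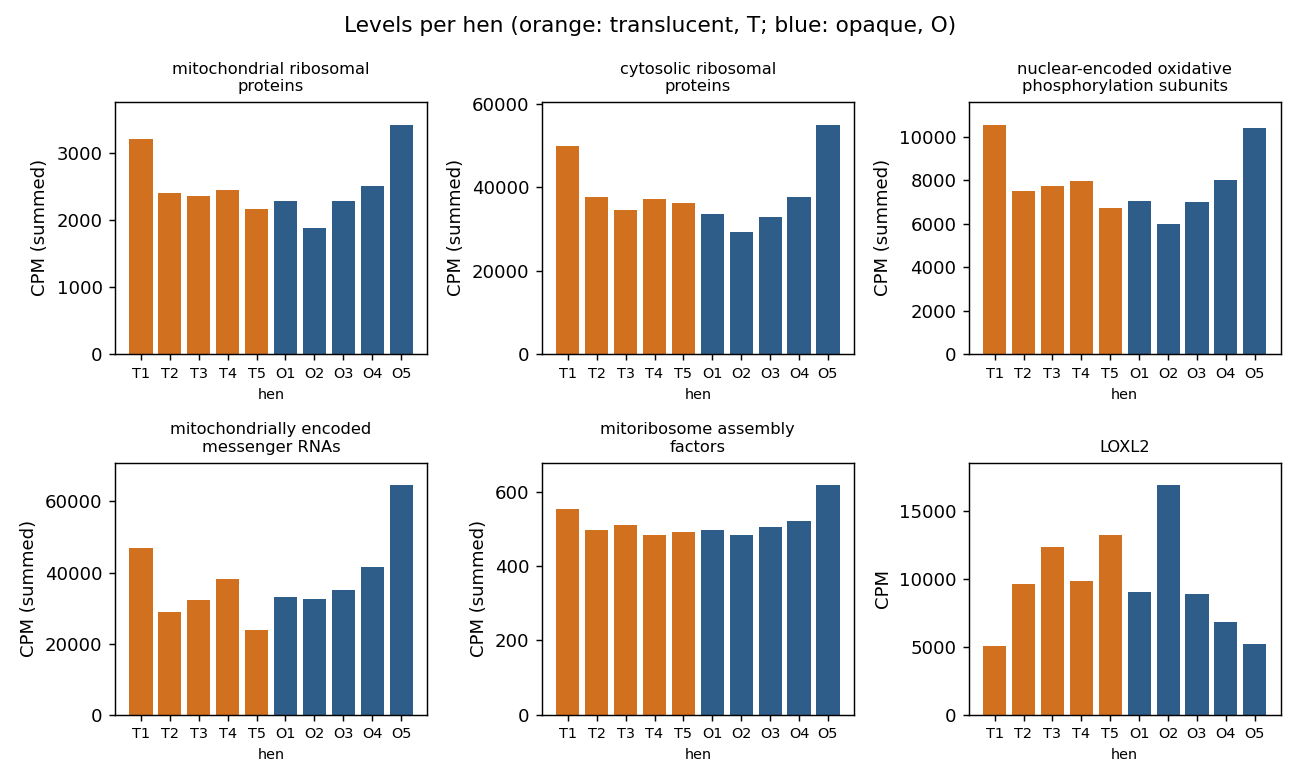
CPM per hen, summed over the mitochondrial ribosomal protein genes and 4 other gene lists and for LOXL2 alone, in translucent hens (orange, T1 to T5) and opaque hens (blue, O1 to O5), with all axes starting at 0. T1 and O5 are the tallest bars in each of the summed lists and the shortest for LOXL2. O2 is the shortest for both kinds of ribosomal protein and for the respiratory subunits. It is also the shortest for the assembly factors, by a small margin (483.3 CPM, against 484.3 CPM in T4).

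Few genes of the rest of the mitochondrial translation pathway passed a test. At an unadjusted p under 0.05 in edgeR's test and in DESeq2, 0 genes passed among 20 assembly factors, 10 translation factors, 8 genes of mitochondrial DNA transcription and 6 regulators of mitochondrial genes, and 0 passed among the mitoribosomal proteins AURKAIP1, PTCD3, DAP3 and CHCHD1. Their median log2 fold changes were -0.07, -0.02, -0.01, -0.16 and 0.03. Among the aminoacyl-tRNA synthetases, PARS2, which charges the mitochondrial proline tRNA, had 4.85 ± 0.450 CPM in translucent hens and 6.48 ± 1.14 CPM in opaque hens, with an unadjusted p of 0.0465, and 0 of the other 12 passed. In edgeR's test 2.19% of all genes passed, and 1.12% passed with a lower level in translucent hens. No gene had an adjusted p under 0.655 in that test. The count of 1 among the 13 synthetases was 0 in 11 of the 20 alternative settings.

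The respiratory subunits NDUFA1 and NDUFA2 of complex I, COX7C of complex IV and ATP5J2 of the ATP synthase had an unadjusted p under 0.05, all higher in translucent hens, which is 4 of 64 listed subunits against 1.07% of all genes. The cytosolic ribosomal protein genes RPS21 and RPS27L, 2 of 68, and the complex I subunit ND4L, 1 of the 13 mitochondrially encoded messenger RNAs, were also higher at that level, while 10 of those 13 had a negative log2 fold change and their median was -0.23. The log2 fold changes of these 7 genes lay between 0.40 and 0.64. None of these passed 0.05 in edgeR after Benjamini-Hochberg adjustment. With each hen left out in turn, the count ran from 0 to 27 for cytosolic ribosomal protein genes and from 0 to 13 for nuclear-encoded respiratory subunits, both highest without Opaque-5, where 3.91% of all genes passed. Both were 0 without Translucent-1, Opaque-2 or Opaque-3, where 2.90%, 2.01% and 1.81% of all genes passed.

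MRPL49, a mitochondria-specific protein of the large subunit, had the largest fitted difference and the largest spread of the 70 rows, and its reads seemed to be divided between 2 rows. The row named MRPL49 (MSTRG.10964), a locus named by StringTie, had 42.1, 3.72, 24.5, 8.05 and 9.45 CPM in hens Translucent-1 to Translucent-5, against 11.9, 14.3, 3.05, 11.1 and 3.16 CPM in hens Opaque-1 to Opaque-5. The highest value was 13.8 times the lowest over the 10 hens, and the log2 fold change of 1.01 ± 0.64 (SE) had a 95% interval of -0.40 to 2.42, with an unadjusted p of 0.145. It was 0.39 without Translucent-1.

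A second row spelled Mrpl49 (MSTRG.10963), which the symbol rule does not take, was high where the first was low. The estimated counts were fractional in each row, as RSEM leaves them when it shares reads between features, but their sum was a whole number in all 10 hens. The sums were 726, 447, 432, 535 and 397 reads in hens Translucent-1 to Translucent-5, against 419, 201, 300.0, 272 and 403 reads in hens Opaque-1 to Opaque-5. The share given to the row MRPL49 ran from 13.0% to 94.4% in translucent hens and from 7.82% to 85.5% in opaque hens. Summed, the 2 rows had 30.5 ± 8.30 CPM in translucent hens and 25.3 ± 8.64 CPM in opaque hens (SD, n = 5 each), and the spread over hens shrank to 2.67-fold. The log2 fold change of the sum was 0.27 ± 0.24, with an unadjusted p of 0.284, so the single row gives no level of this gene.

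**Figure D5:**
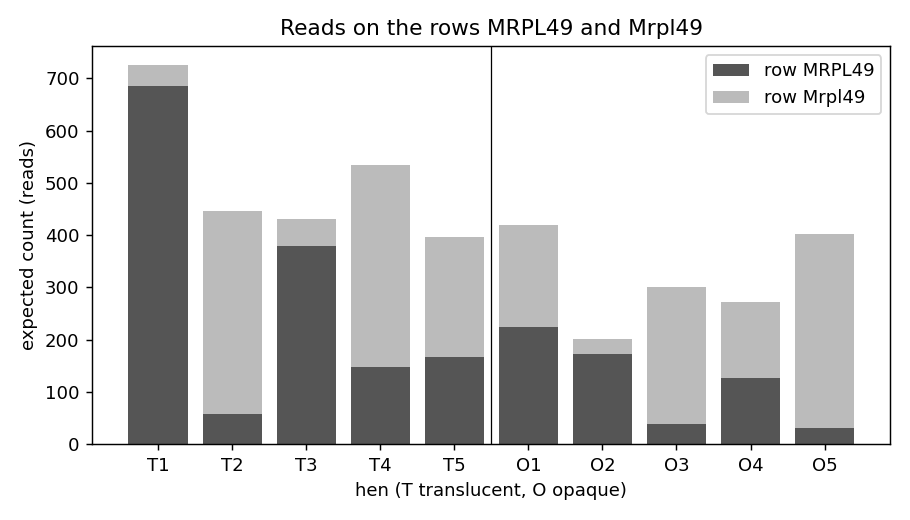
Expected counts (reads) assigned to the rows MRPL49 (dark) and Mrpl49 (light), stacked per hen, for translucent hens T1 to T5 left of the line and opaque hens O1 to O5 right of it. The bars reach 201 to 726 reads, and the dark share changes from 7.82% to 94.4% between hens.

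The second row named MRPL19 (MSTRG.15970) was the only one that failed the filter, with 2 reads each in Opaque-3 and Opaque-5 and 0 in the other 8 hens, all under the floor of 3 reads, so no fold is given for it. The first MRPL19 row (ENSGALG00000016731) averaged 21.5 FPKM. Fractional counts, a sign of shared reads, were found in 13 of the 71 rows. Among these were MRPS17 and MRPS14, both near the top of the levels, and MRPL54 and MRPL49, each in all 10 hens. The effect of shared reads on their levels was not tested, apart from the sum of the rows MRPL49 and Mrpl49. The symbol rule also left out 3 rows with no symbol that are described as mitochondrial ribosomal proteins L2, L30 and L55, at 62.8, 34.9 and 8.33 FPKM, and a row spelled mrpl36 at 6.02 FPKM. Their log2 fold changes were -0.08, 0.18, -0.28 and -0.11, with unadjusted p-values of 0.758, 0.417, 0.387 and 0.363. By RefSeq gene numbers (assembly GRCg7b), 66 of the 71 rows were matched with the same symbol, and 1 pair, MRPS11 and MRPL46, are neighbours in the genome.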

How the data were processed

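White isthmus mRNA libraries of 10 hens, 1 per hen, were compared. Per the labels and the study's methods, fastp was used for read filtering, Bowtie2 to take out ribosomal RNA reads, HISAT2 for alignment, StringTie for transcript assembly and RSEM for quantification. The genome build is not given in the sources used here. The authors deposited expected counts, not normalized, and FPKM values, scaled to gene length and mapped fragments. The expected counts, 6.73% of them fractional, were rounded. TMM scaling, filterByExpr and the quasi-likelihood test of edgeR 4.0.16 were run on all rows in R 4.3.3, with Benjamini-Hochberg adjustment over the 12858 genes tested. Log2 CPM used a prior count of 2. A floor of 3 counts was between 0.160 and 0.297 CPM and covers counting error only. Plots were made in Python 3.11.15 using matplotlib 3.10.9.

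Alternatives were DESeq2 1.42.0, limma 3.58.1 on log2 FPKM with pseudocounts of 1 and 0.1, median-of-ratios and library-size scaling, 2 other filters, the replicate number as a block, hens 1 to 3 only, the data without Translucent-1 and Opaque-5, and each hen left out. The scaling of the order of hens and the summed MRPL49 rows were added after seeing the data. The members and gene lists were chosen with earlier results of these data known. The genes named are the 6 highest and 6 lowest by FPKM, the 6 smallest p-values in each direction, the 3 most and 3 least variable, the row that failed the filter, genes chosen by role and listed genes with an unadjusted p under 0.05. MRPL13 was named after its values were seen. Each test across genes was first tried on simulated data.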

Additional observations from a re-analysis of the deposited data

Results flagged for a closer look

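Of 70 sets of 5 hens examined, 12 held a hen whose gap to the next was large against the range of its group by Dixon's criterion, where chance gives about 1 in 20. In the translucent group the hen was Translucent-1, the highest in each case. It had 3208 CPM summed over the mitochondrial ribosomal protein genes, where the next hen had 2453, and 49919 CPM summed over the cytosolic ribosomal protein genes, where the next had 37587. It had 219 CPM for MRPS17, 19.7 for MRPS30, 20.1 for MRPL27, 34.8 for MRPS12, 41.9 for MRPL17, 60.5 for MRPL1 and 13.0 for MRPS18C. In the opaque group the hen was Opaque-5, the highest with 22.9 CPM for MRPL27, 16.4 CPM for MRPS18C and 64497 CPM summed over the mitochondrially encoded messenger RNAs, where the next hen had 41541. These values come from the same libraries and are not independent of each other.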

How the results depend on the processing

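The count of 0 calls held under every alternative run. The count with an unadjusted p under 0.05, 1 of 70, was 11 with hens 1 to 3 only (7.67% of all genes), 2 without Translucent-1 and Opaque-5 (3.98%), and 0 to 5 with each hen left out, the 5 without Opaque-5 (3.91%). The median log2 fold change ran from -0.09 without Translucent-1 to 0.18 without Opaque-5, was negative also without Opaque-1, Opaque-2 or Opaque-3, and was 0.29 with hens 1 to 3 only. The log2 ratio of the summed CPM, 0.02, was 0.31 with hens 1 to 3 only and -0.08 to 0.17 with each hen left out. Translucent-1 and Opaque-5 were the 2 highest hens in 24 rows by library size alone and by FPKM, and in 51 to 54 with each other hen left out. With hens 1 to 3 only, the log2 fold changes of MRPL43 (0.18), MRPS16 (0.16), MRPS2 (0.16) and MRPL17 (0.27) turned positive, and MRPL17 ran from -0.28 to 0.046 with each hen left out, the positive value without Opaque-5. The cause was not tested.

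The replicate numbers belong to different hens. Deviations of same-numbered hens correlated at -0.13 on average (-0.42 to 0.10, 5 pairs), and 0 hens were closest to their own number. With the number as a replicate block, 0 rows were called, 1 had an unadjusted p under 0.05 and the median log2 fold change was 0.04. Depth limits MRPL4 and the second MRPL19 row most.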
